A study of Mus musculus with 2 samples.

Results

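Iron handling was examined through 9 genes of iron and heme in myeloid cells that had infiltrated colorectal polyps of mice: *Slc40a1*, *Slc11a1*, *Fth1*, *Ftl1*, *Tfrc*, *Hmox1*, *Hp*, *Hpgds* and *Blvrb*. They were taken as a named list, chosen with earlier results of these data known, and all 9 were among the 32285 genes counted in both libraries. One library held cells of WT mice (5 pooled) and the other cells of *Clec7a*-/- mice (4 pooled), which lack Dectin-1, a receptor of myeloid cells for fungal and other β-glucans. All were C57BL6/J mice, given an age of 26 weeks by the labels, and all had received azoxymethane (AOM) and 3 cycles of 1% DSS over 16 weeks, so no untreated animal served as a control. Cells stained for CD11b and CD11c had been sorted. *Clec7a* itself was not analysed here, so the genotype of the libraries was not checked from it. With 1 library of pooled mice per genotype, mice and genotype cannot be told apart from library preparation, no test was possible, and each interval is a 95% interval for counting error alone.

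Myeloid cells take up iron bound to transferrin through the transferrin receptor (*Tfrc*) and heme from engulfed red blood cells. Heme oxygenase 1 (*Hmox1*) opens heme and frees its iron, and *Blvrb* encodes biliverdin reductase B. Iron not in use is stored inside a shell of ferritin heavy (*Fth1*) and light (*Ftl1*) chains or leaves the cell through ferroportin (*Slc40a1*), the iron exporter, whereas *Slc11a1* (Nramp1) moves iron and other metals across the phagosome membrane and is known for a loss-of-function allele in C57BL/6 mice. Haptoglobin (*Hp*) binds free hemoglobin. *Hpgds* makes prostaglandin D2 and is the member least tied to iron. In the intestine, macrophages are known for iron recycling and neutrophils for withholding iron from microbes.

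Iron-responsive elements are short hairpins in mRNA that iron regulatory proteins bind when iron is low. In a 5′ UTR the bound hairpin blocks translation, and in a 3′ UTR it protects the mRNA from decay. The hairpin was searched on the sense strand of the UTRs of 21875 protein-coding genes in GENCODE M21 (GRCm38), as a C, any 5 bases, CAGTG and 6 more bases in which 5 pairs close the stem (G with T allowed). It was found in 155 genes (0.709%) and in 4 of the 9 members. These are shown because they divide the members into those with a hairpin before the coding sequence and the 1 with hairpins after it. Capitals mark the CAGTG of the loop.
*Fth1*, 5′ UTR, chr19:9982732-9982760, plus strand: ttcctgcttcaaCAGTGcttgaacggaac
*Ftl1*, 5′ UTR, chr7:45459779-45459807, minus strand: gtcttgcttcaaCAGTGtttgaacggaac
*Slc40a1*, 5′ UTR, chr1:45925465-45925493, minus strand: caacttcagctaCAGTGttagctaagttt
*Tfrc*, 3′ UTR, chr16:32631219-32631247, plus strand: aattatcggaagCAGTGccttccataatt
*Tfrc*, 3′ UTR, chr16:32631598-32631626, plus strand: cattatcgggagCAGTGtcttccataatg
*Tfrc*, 3′ UTR, chr16:32631663-32631691, plus strand: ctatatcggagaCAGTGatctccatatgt
*Tfrc*, 3′ UTR, chr16:32631710-32631738, plus strand: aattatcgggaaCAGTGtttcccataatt
The CAGTG was set by the search and is shared by all hits. Beside it the stretches of the ferritin chains were closely alike, and *Tfrc* held 4 hairpins in its 3′ UTR. No match in the other 5 members says only that these letters and pairs were not found in their UTRs. The match is a description of sequence, and binding was not measured.

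The remaining members lie at chr1:74375195-74386062 (*Slc11a1*, plus strand), chr8:75093621-75100589 (*Hmox1*, plus), chr8:109575128-109579172 (*Hp*, minus), chr6:65117293-65144908 (*Hpgds*, minus) and chr7:27447978-27466144 (*Blvrb*, plus). *Ftl1* has a near-identical copy, *Ftl1-ps1* (chr13:74399694-74407346, plus strand), that was counted on its own, so reads shared by both could be split or lost and the level of *Ftl1* is uncertain to that extent.

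Sequencing gave 15869215 UMIs in 3467 WT barcodes and 11808230 UMIs in 3080 *Clec7a*-/- barcodes. A UMI marks a single captured transcript. After the filter of the study's methods, 2696 and 1999 cells were left, with medians of 3412.5 and 2671 UMIs, and 10 of their barcodes occurred in both libraries. Clusters were drawn without the members, and 11 of 15 held enough cells to be compared. Markers named monocyte-like cells (cluster 0), granule-rich neutrophil-like cells (1), transitional cells between monocyte and macrophage (3), macrophage-like cells (5 and 6), mature (7), type 2 (8) and type 1 (9) dendritic cell (DC)-like cells, and T-cell-like cells (10). In clusters 5 and 6 the name rests on 9 of 11 macrophage markers that were over 2-fold higher, none of them among the 10 leading genes by fold, which in cluster 5 held 1 erythroid marker, *Hbb-bs*, so the clusters were compared by number. Cluster 2 held few UMIs per cell (median 979.5) and, although 8 of 10 neutrophil markers were over 2-fold higher in it, stayed unnamed. Over 2-fold higher there were also 7 of 7 markers of granule-poor or transitional neutrophils, 2 of 8 of granule-rich ones and 2 of 4 of eosinophils. The same 7 of 7 were over 2-fold higher in cluster 1. Cluster 4 mixed neutrophil and monocyte markers and also stayed unnamed. The sort was for CD11b and CD11c. *Itgam*, the gene of CD11b, stood at 430 and 262 counts per 1e6 UMIs (CPM) in the WT and *Clec7a*-/- cells, and at 22.8 and 8.26 CPM in mature DC-like cells, in which *Itgax*, the gene of CD11c, was at 147 and 126 CPM beside 149 and 122 CPM in T-cell-like cells. The library shares differed, with granule-rich neutrophil-like cells at 18.4% of WT and 4.40% of *Clec7a*-/- cells, and cluster 2 at 6.79% and 15.9%.

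Over all kept cells, 8 of the 9 members were lower in the *Clec7a*-/- library beyond counting error, as were 15.6% of all 9856 genes with at least 50 UMIs, and 0 were higher, against 33.7%. A gene with more UMIs passes counting error at a smaller ratio. Here and below, the shares of all genes were not matched to the members for UMIs. *Slc40a1* went from 114 to 40.9 CPM, a log2 ratio of -1.48 (-1.66 to -1.30), and *Hmox1* from 15610 to 7426 CPM, a log2 ratio of -1.07 (-1.09 to -1.06). These were the 2 members at least 2-fold lower, beside 1.85% of all genes tested. None was at least 2-fold higher, beside 3.42% of all genes tested. *Tfrc* was the member whose interval reached 0, at 40.7 and 35.2 CPM (log2 ratio -0.21, -0.43 to 0.01). The other 6 were lower beyond counting error by log2 ratios of -0.34 to -0.82. The 2 libraries held cells of different kinds, and when the 11 clusters were given equal weight the log2 ratio moved to -0.75 for *Slc40a1*, to -0.22 for *Hmox1* and to 0.01 for *Fth1*, but to -0.60 for *Ftl1*.

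**Figure D1:**
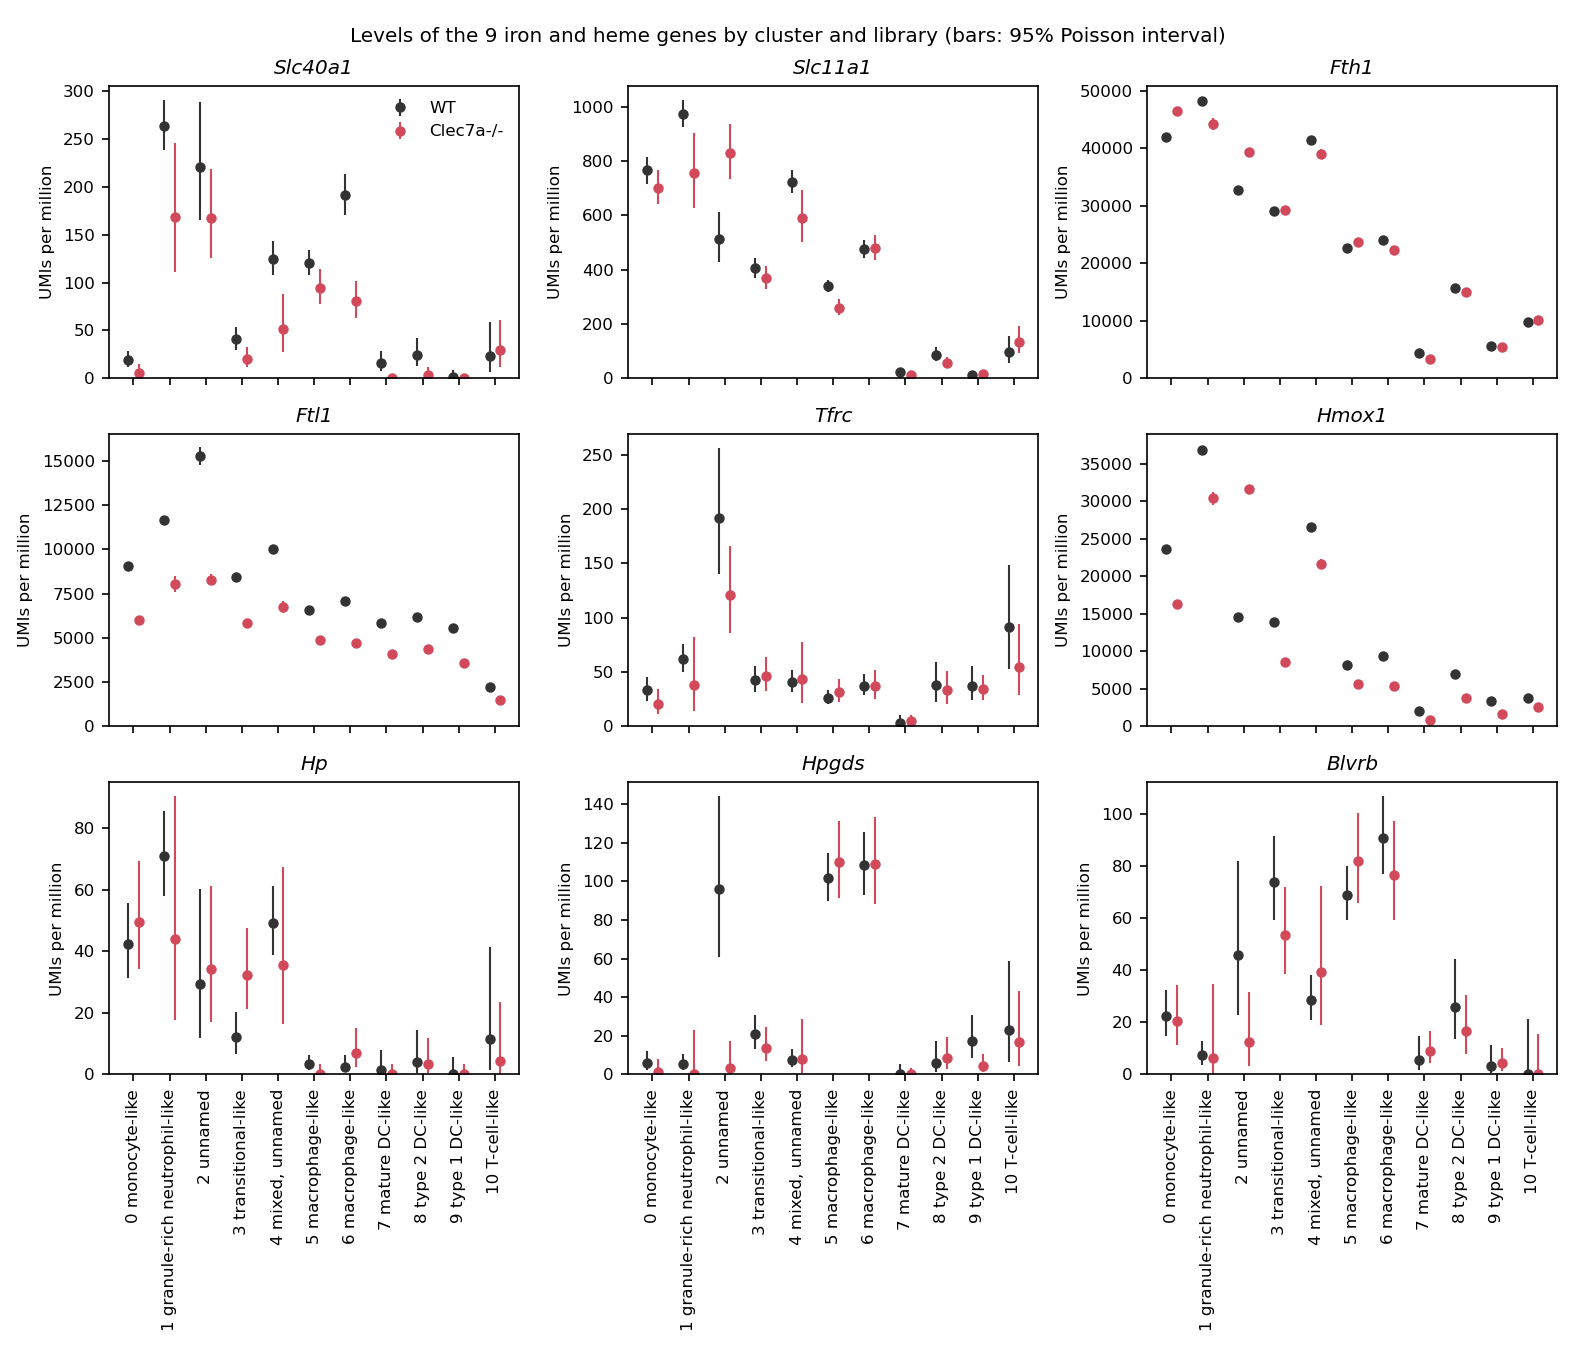
Levels of the 9 members in CPM on linear axes, by cluster, in the WT (dark) and Clec7a-/- (red) libraries, with 95% Poisson intervals. Ferritin heavy chain and Hmox1 were high in monocyte- and neutrophil-like cells and low in dendritic-cell-like cells, Hpgds and Blvrb stood out in macrophage-like cells, and Ftl1 was lower in the Clec7a-/- library in all 11 clusters.

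Iron storage set the members' scale, and the light chain of ferritin was the member that differed between the libraries in the same direction everywhere. *Ftl1* was lower in *Clec7a*-/- cells in 11 of 11 clusters, by log2 ratios of -0.43 to -0.88, while *Fth1* was lower beyond counting error in 5 clusters, higher in 3 and within it in 3. Of 887 genes with at least 50 UMIs in every cluster, 3 (0.338%) were lower beyond counting error in all 11, namely *Ftl1*, *Hilpda* (a lipid droplet protein) and *Cxcl2* (a neutrophil chemokine).

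In monocyte-like cells *Ftl1* stood at 9047 CPM in WT and 6017 CPM in *Clec7a*-/- cells (log2 ratio -0.59, -0.64 to -0.54). In the macrophage-like clusters it stood at 6587 and 4898 CPM in cluster 5 (-0.43, -0.47 to -0.38) and at 7076 and 4735 CPM in cluster 6 (-0.58, -0.63 to -0.53). Per total UMIs the widest gap was in cluster 2, with 15287 and 8285 CPM (-0.88, -0.96 to -0.81). That rank depends on the scaling, since TMM scaling (closing section) gave -0.38 in cluster 2 and -0.77 in cluster 1. T-cell-like cells had the lowest levels, 2240 and 1504 CPM, and a ratio in the same range (-0.57, -0.79 to -0.36). These cells also serve below as a measure of free RNA, and its part in the *Ftl1* ratios of the 11 clusters was not tested. None of these ratios reached 2-fold, and the levels of both libraries kept the same first 3 clusters in order (2, 1 and 4).

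The copy *Ftl1-ps1* was counted far less, at 6.37% of the *Ftl1* UMIs in WT cells and 8.24% in *Clec7a*-/- cells. Its log2 ratio was -0.15 (-0.33 to 0.03) in monocyte-like cells and -0.08 (-0.24 to 0.09) in cluster 5, and it was lower beyond counting error in transitional cells alone (-0.22, -0.40 to -0.04) of the 11 clusters. Both genes summed were lower in every cluster, at log2 ratios from -0.40 in cluster 5 to -0.84 in cluster 2.

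*Fth1*, the heavy chain, was the most abundant member. Per cell, it stood at 214 UMIs in WT and 193 in *Clec7a*-/- cells of cluster 5, against 147 and 80.2 in cluster 1. It reached 48200 CPM in WT granule-rich neutrophil-like cells and 46523 CPM in *Clec7a*-/- monocyte-like cells, and was lowest in mature DC-like cells at 4351 and 3254 CPM. That last pair was also its widest fall between the libraries (log2 ratio -0.42, -0.49 to -0.35). Both levels were under those of T-cell-like cells (9775 and 10084 CPM), and the part of free RNA in this fall was not tested. *Fth1* was higher in *Clec7a*-/- cells of cluster 2 (32736 and 39341 CPM, 0.27, 0.22 to 0.31) and of the monocyte-like cluster (42030 and 46523 CPM, 0.15, 0.13 to 0.17). In cluster 5 the difference was 0.06 (0.04 to 0.08), and it turned to the other sign when cells with more mitochondrial UMIs were kept.

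The chains were therefore set against each other within the same cells, as *Ftl1* UMIs per *Fth1* UMI, which needs no scaling between libraries. Each transcript is counted once at its 3′ end, so the ratio is of captured molecules and is not divided by length. For monocyte-like cells this ratio was 0.215 (0.211 to 0.220) in WT and 0.129 (0.125 to 0.134) in *Clec7a*-/- mice. Mature DC-like cells held 1.35 (1.28 to 1.41) and 1.26 (1.21 to 1.32), and type 1 DC-like cells 1.00 (0.957 to 1.05) and 0.659 (0.633 to 0.685). Both clusters had *Fth1* levels under those of T-cell-like cells, and the part of free RNA in their ratios was not tested. Type 2 DC-like cells, at 0.392 and 0.290, stood nearer to the monocytes and macrophages than to the other DC-like clusters. The ratio was lower in the *Clec7a*-/- library in all 11 clusters, and the intervals of the libraries met only in mature DC-like cells.

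**Figure D2:**
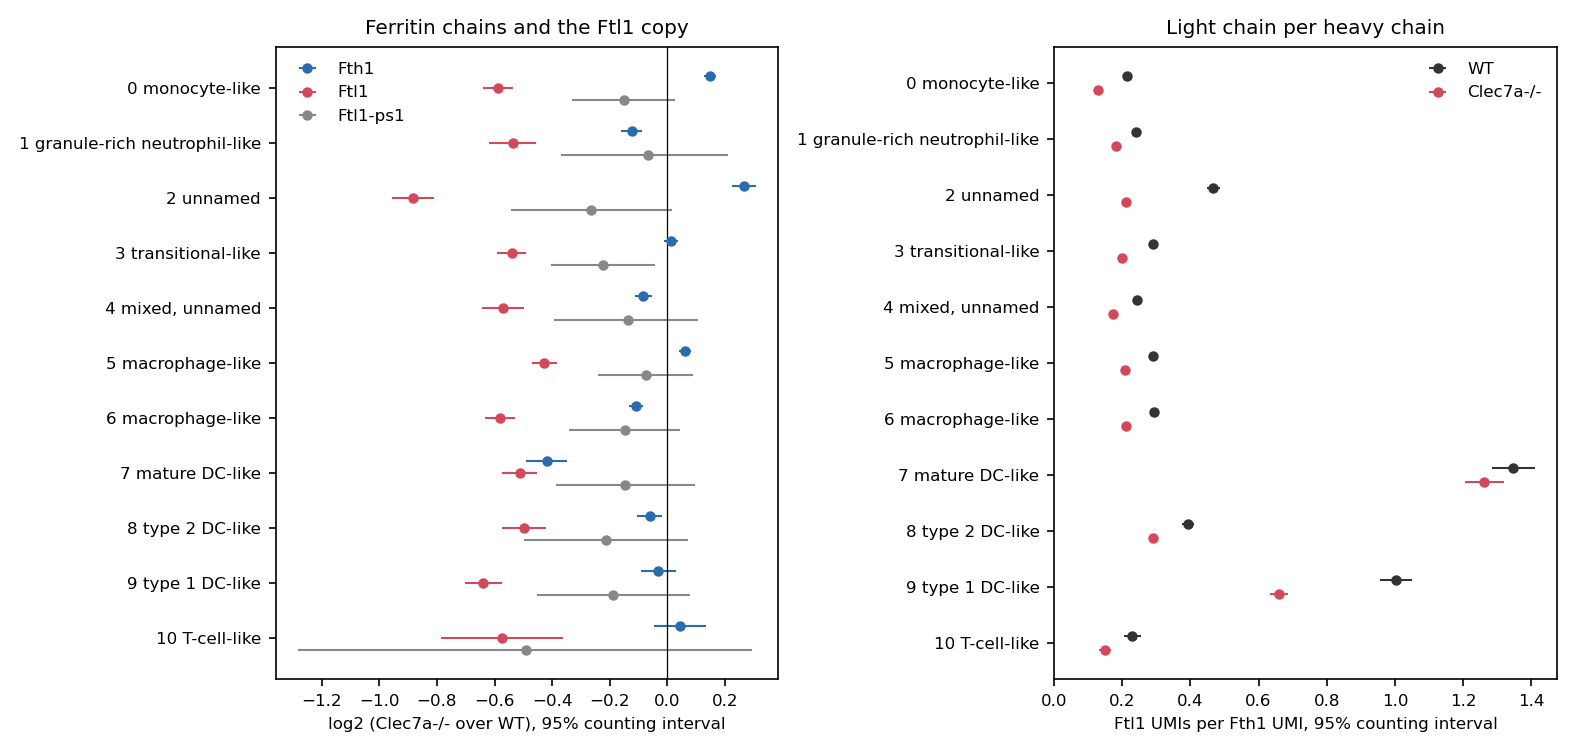
Left, log2 ratios of the Clec7a-/- over the WT library for both ferritin chains and the Ftl1 copy by cluster, with 95% counting intervals; right, Ftl1 UMIs per Fth1 UMI in each library. Ftl1 lies left of 0 in every cluster, Fth1 lies on both sides, and the mature and type 1 DC-like clusters hold far more light chain per heavy chain than the others.

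Heme breakdown was led by *Hmox1*, with 0.764 WT and 0.688 *Clec7a*-/- UMIs per *Fth1* UMI in granule-rich neutrophil-like cells. WT levels were 36842 CPM and *Clec7a*-/- levels 30407 CPM in granule-rich neutrophil-like cells (log2 ratio -0.28, -0.32 to -0.23), and 23594 and 16328 CPM in monocyte-like cells (-0.53, -0.56 to -0.50). Macrophage-like cells held less, with 8187 and 5619 CPM in cluster 5 (-0.54, -0.58 to -0.50) and 9353 and 5389 CPM in cluster 6 (-0.80, -0.84 to -0.75). It was thus lower in the *Clec7a*-/- library in each of these clusters, and in 10 of 11 clusters in all.

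In DC-like cells the gap was the widest. Mature DC-like cells held 2068 and 860 CPM (log2 ratio -1.27, -1.39 to -1.15) and type 1 DC-like cells 3352 and 1660 CPM (-1.01, -1.10 to -0.92). *Hmox1* was the 1 member at least 2-fold lower in each of them, where 1.15% and 0.963% of all genes tested were that much lower. T-cell-like cells were set beside them as a measure of free RNA. No doublet was removed, and 1 WT cell held 105 of the 375 *S100a9* UMIs of this cluster. The measure may therefore not be of free RNA alone, and it cannot set a floor for DC-like cells. T-cell-like cells held 3736 and 2634 CPM, or 9.88 and 5.17 UMIs per cell, against 10.6 and 4.06 per mature DC-like cell. The 10 neutrophil markers summed to 5409 and 1930 CPM in T-cell-like cells and to 1306 and 496 CPM in mature DC-like cells, with none of them at 0, so they were lower in the *Clec7a*-/- library too. Their part in the *Hmox1* ratio of these clusters was not tested. With each cell thinned to 1000 UMIs, 66.1% (52.2 to 78.2) and 45.1% (34.6 to 55.8) of T-cell-like cells held an *Hmox1* UMI, with at most 49 and 47 in a cell, and 56.1% (47.2 to 64.7) and 38.7% (32.2 to 45.5) of mature DC-like cells. Without thinning these were 77.3% and 52.1%, and 89.8% and 62.3%, at median depths of 2082.5 and 1552 UMIs in T-cell-like and 4350 and 4083 UMIs in mature DC-like cells. After thinning, the share in mature DC-like cells was at or under that of T-cell-like cells in each library, and without thinning, at greater depth, above it. Type 1 DC-like cells held it in 69.8% (58.9 to 79.2) and 58.8% (50.7 to 66.5) after thinning, intervals that overlap those of T-cell-like cells. Neither share, nor its difference between the libraries, is read as expression, whereas the share was 91.2% or more in clusters 1, 2, 5 and 6 of both libraries. Thinning left out cells with fewer than 1000 UMIs, which in cluster 2 were 73 of 183 WT and 183 of 317 *Clec7a*-/- cells.

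Cluster 2 went the other way. *Hmox1* stood at 14590 CPM in its WT cells and 31601 CPM in its *Clec7a*-/- cells, a log2 ratio of 1.11 (1.06 to 1.17), and among members with at least 50 UMIs in a cluster no other was at least 2-fold higher. The background there was wide, since 9.42% of its 1582 genes tested were at least 2-fold higher and its medians were 1141 and 912 UMIs per cell. Summed neutrophil markers moved with it, from 15771 to 24544 CPM. Eosinophil markers moved against it, at 163 and 31.1 CPM, and in WT cells of the cluster with and without a UMI of such a marker *Hmox1* stood at 14922 and 14532 CPM. The part of the neutrophil markers was not tested.

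*Blvrb* was at its highest in a macrophage-like cluster in each library. In cluster 6 it stood at 91.0 CPM (76.9 to 107) for WT and 76.8 CPM (59.5 to 97.5) for *Clec7a*-/- mice, and in cluster 5 at 69.1 (59.5 to 79.9) and 82.0 (66.0 to 101). Transitional cells stood between these clusters in WT and below both in *Clec7a*-/- mice, with 74.1 (59.3 to 91.5) and 53.6 CPM (38.8 to 72.2), and their intervals overlapped those of both. In neutrophil-like cluster 1 it was at 7.27 and 6.26 CPM, and in T-cell-like cells it had 0 UMIs, which allows up to 17.2 and 12.6 CPM. Its log2 ratio spanned 0 in the 4 clusters with at least 50 UMIs. *Hmox1* and *Blvrb* thus peaked in different clusters.

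*Slc40a1*, the iron exporter, had its highest level per 1e6 UMIs in neutrophil-like cells. Per cell it was higher in macrophage-like clusters 5 and 6, at 1.14 and 1.23 UMIs in WT against 0.806 in cluster 1. In *Clec7a*-/- cells these were 0.772 and 0.443 against 0.307 UMIs per cell. The CPM intervals of clusters 1 and 5 (77.4 to 114) overlapped in that library. WT granule-rich neutrophil-like cells stood at 264 CPM (239 to 291) and those of *Clec7a*-/- mice at 169 CPM (111 to 246), with a ratio of -0.62 on the log2 scale (-1.26 to -0.08). Cluster 2 followed with 221 CPM (166 to 289) and 168 CPM (126 to 219), and its intervals overlapped those of cluster 1 in both libraries. Its log2 ratio was -0.40 (-0.97 to 0.18), and 0.11 with TMM scaling.

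Between the macrophage-like clusters the ferroportin ratios in CPM were unlike, which the shares of cells after thinning, given below, did not show. In cluster 6 *Slc40a1* went from 191 CPM (171 to 214) to 80.2 CPM (62.5 to 101), or -1.25 on the log2 scale (-1.65 to -0.88), where 1.62% of all genes tested were at least 2-fold lower. In cluster 5 it stood at 121 CPM (108 to 135) and 94.6 CPM (77.4 to 114), a log2 ratio of -0.35 (-0.68 to -0.03). The intervals of these ratios do not meet, and the difference was not tested, since each cluster has a single value per library. Cluster 4 was the other cluster at least 2-fold lower, at 125 and 51.3 CPM (-1.23, -2.22 to -0.47), with a background of 3.3%, and the *Clec7a*-/- value there rests on 13 UMIs. DC-like cells held almost none, with 11 and 0 UMIs in mature DC-like cells, where a count of 0 allows up to 2.75 CPM.

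After thinning to 1000 UMIs, 20.3% (16.8 to 24.1) of WT and 13.1% (6.72 to 22.2) of *Clec7a*-/- granule-rich neutrophil-like cells held a *Slc40a1* UMI. In cluster 6 the shares were 11.1% (7.32 to 16.0) and 7.91% (4.02 to 13.7). T-cell-like cells had 3.57% (0.435 to 12.3) and 4.40% (1.21 to 10.9) and serve as the background. Without thinning the shares were 46.7% and 18.2%, 40.6% and 25.3%, and 6.06% and 4.96% in the same order. Thinning left out 2 and 4 cells of cluster 1, 26 and 19 of cluster 6 and 10 and 30 T-cell-like cells. The share of WT cluster 1 cells was above that of T-cell-like cells, and for *Clec7a*-/- cells the intervals overlapped. Cluster 5, for which thinning left out 0 cells, had 9.64% (6.45 to 13.7) in WT and 5.15% (2.09 to 10.3) in *Clec7a*-/- cells. After thinning, the intervals of clusters 5 and 6 overlapped each other and those of T-cell-like cells in both libraries. Without thinning, WT T-cell-like cells stood at 22.9 CPM (6.24 to 58.7), from 4 UMIs. Those of *Clec7a*-/- mice stood at 29.5 CPM (11.9 to 60.8), from 7 UMIs. The CPM intervals of clusters 1, 5 and 6 lay above these in both libraries, the nearest being *Clec7a*-/- cluster 6 (62.5 to 101).

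**Figure D3:**
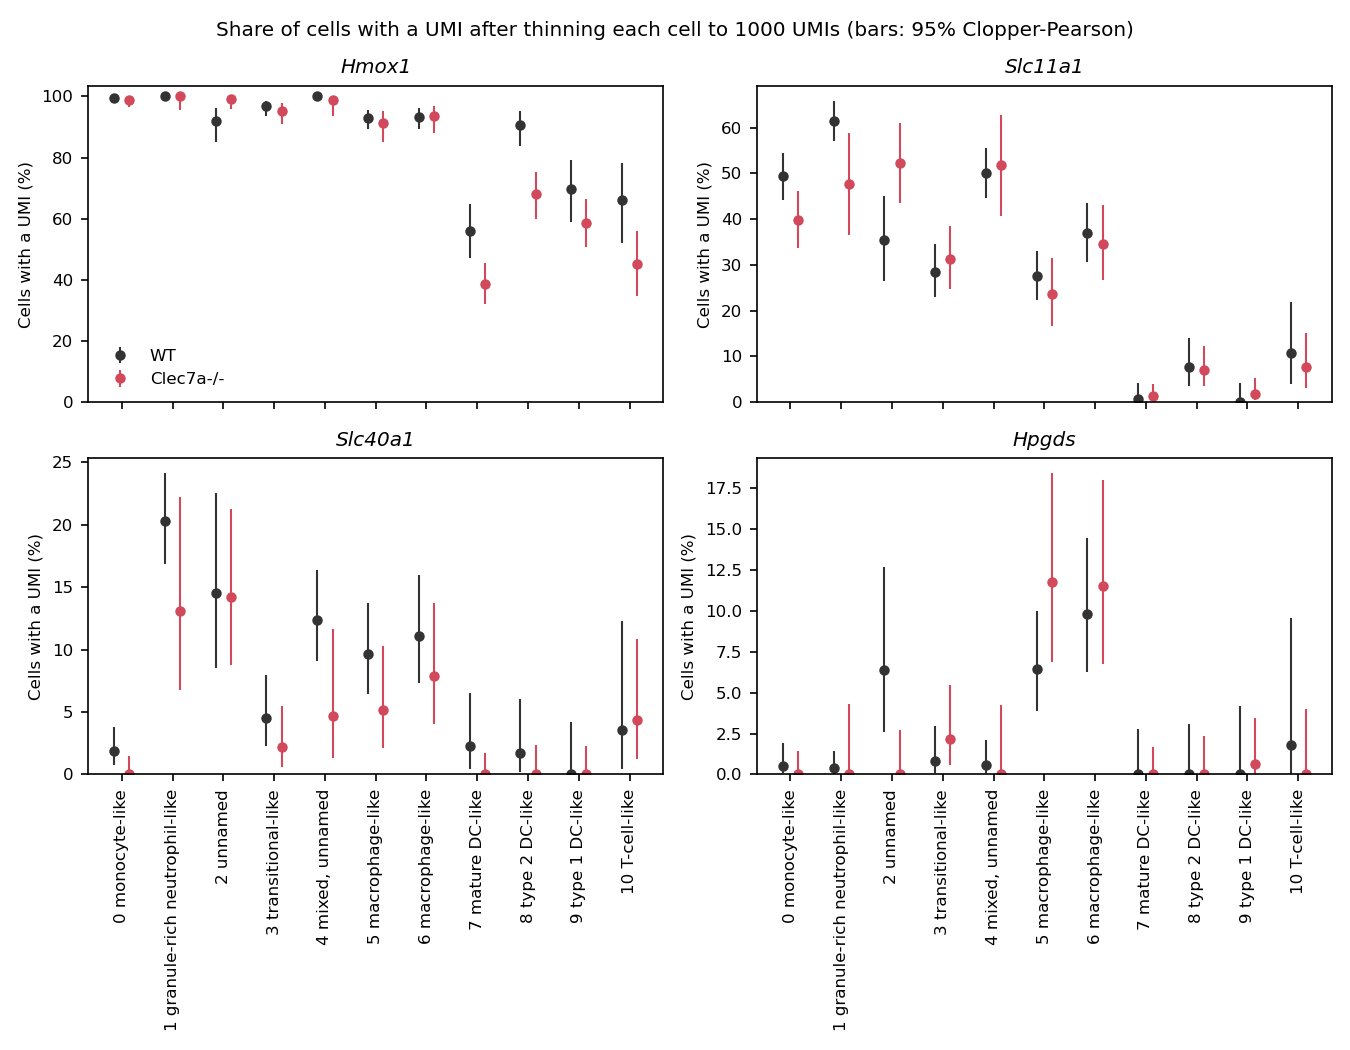
Percentage of cells with at least 1 UMI of Hmox1, Slc11a1, Slc40a1 and Hpgds by cluster after thinning to 1000 UMIs, in the WT (dark) and Clec7a-/- (red) libraries, with 95% Clopper-Pearson intervals. Cells with fewer than 1000 UMIs were left out, among them 73 of 183 WT and 183 of 317 Clec7a-/- cells of cluster 2. Hmox1 was found in 91.2% or more of the thinned cells of clusters 1, 2, 5 and 6, and Slc40a1 in at most 20.3%, in WT granule-rich neutrophil-like cells.

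*Tfrc*, the receptor for iron uptake, was scarce and highest in cluster 2. There it stood at 192 CPM (141 to 256) in WT and 121 CPM (86.2 to 166) in *Clec7a*-/- cells, from 46 and 39 UMIs (log2 ratio -0.66, -1.32 to -0.02). WT cells of the cluster with a UMI of an eosinophil marker held 17 of these UMIs, at 477 CPM (278 to 763). Cells without one stood at 142 CPM (95.2 to 204) in WT and 120 CPM (84.4 to 165) in *Clec7a*-/- mice. The part of the eosinophil-marker cells in the ratio was not tested. T-cell-like cells came next with 91.7 CPM (52.4 to 149) and 54.8 CPM (29.2 to 93.7), which overlap the levels of cluster 2. Macrophage-like cells held 26.5 and 31.5 CPM in cluster 5 and 37.1 and 36.7 CPM in cluster 6. Per cell, cluster 2 held 0.251 and 0.123 *Tfrc* UMIs, against 0.250 and 0.257 in cluster 5. Type 1 DC-like cells held 0.279 and 0.235 per cell, so cluster 2 did not stand out by that measure. In 7 of the 8 clusters with at least 50 UMIs the ratio of the libraries spanned 0.

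*Slc11a1*, the phagosomal transporter, was high in neutrophil- and monocyte-like cells. It stood at 975 CPM (926 to 1026) in WT and 758 CPM (629 to 905) in *Clec7a*-/- granule-rich neutrophil-like cells, and at 766 (717 to 817) and 703 (641 to 768) in monocyte-like cells. Macrophage-like cells held 338 and 260 CPM in cluster 5 (log2 ratio -0.37, -0.57 to -0.18) and 475 and 479 CPM in cluster 6 (0.01, -0.16 to 0.19). Mature DC-like cells stood at 22.8 and 10.1 CPM. Per cell, *Slc11a1* had 3.19 and 2.125 UMIs in cluster 5 and 3.06 and 2.65 in cluster 6, against 2.98 and 1.375 in cluster 1. In cluster 2 it went from 513 (427 to 612) to 830 CPM (733 to 936), a log2 ratio of 0.69 (0.38 to 1.01), beside *Hmox1* and *Fth1* the third member that was higher there beyond counting error, as were 23.6% of all genes tested in that cluster.

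*Hp* was a low transcript of neutrophil- and monocyte-like cells. WT levels were 70.8 CPM (58.0 to 85.5) in granule-rich neutrophil-like, 49.0 CPM (38.7 to 61.3) in cluster 4 and 42.2 CPM (31.4 to 55.5) in monocyte-like cells. In the *Clec7a*-/- library monocyte-like cells were at 49.6 CPM (34.3 to 69.3) and granule-rich neutrophil-like cells at 43.8 CPM (17.6 to 90.3), from 7 UMIs. The ratio spanned 0 in the 3 clusters with at least 50 UMIs. In transitional cells, under that minimum, 14 WT and 26 *Clec7a*-/- UMIs gave 12.1 and 32.4 CPM. The partner in hemoglobin clearance, the scavenger receptor *Cd163*, had 0 and 1 UMIs among all kept cells.

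*Hpgds* was highest in the macrophage-like clusters, where its library ratio spanned 0. It stood at 102 CPM (89.9 to 115) and 110 CPM (91.3 to 131) in cluster 5 (log2 ratio 0.12, -0.21 to 0.43), and at 108 CPM (92.9 to 126) and 109 CPM (88.1 to 133) in cluster 6 (0.01, -0.37 to 0.38). Cluster 2 of the WT library had a level like theirs, 96.0 CPM (60.8 to 144), against 3.11 CPM for *Clec7a*-/- mice, from 23 and 1 UMIs. These 23 UMIs lay in WT cells with no UMI of an eosinophil marker, at 113 CPM (71.5 to 169). The 26 cells that had one held 0, with an interval reaching 103 CPM, so the intervals overlapped. The 11 macrophage markers summed to 351 and 370 CPM in cluster 2, against 14287 and 19433 CPM in cluster 5. Mature DC-like cells had 0 UMIs of *Hpgds*, which allows up to 4.28 and 2.75 CPM.

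**Figure D4:**
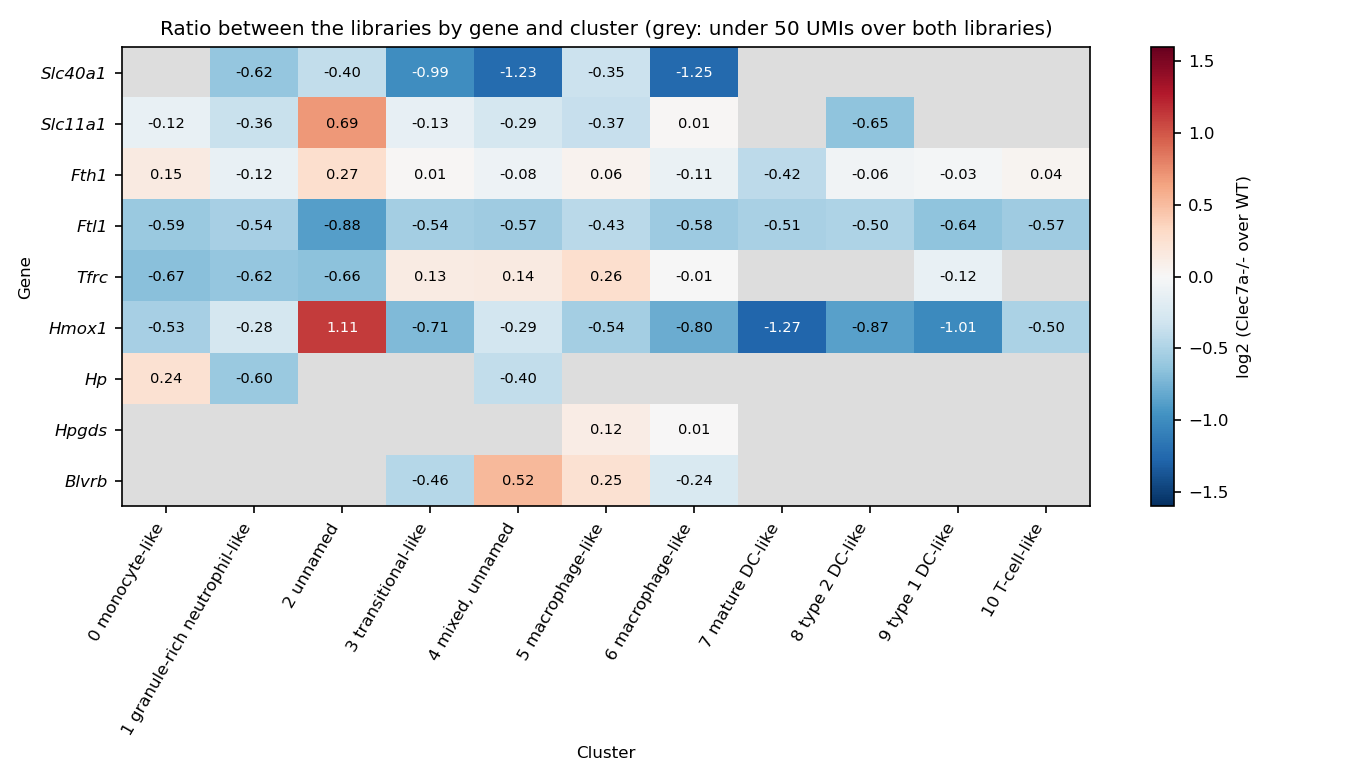
Log2 ratio of the Clec7a-/- over the WT library for each member (rows) in each cluster (columns), in blue where lower and red where higher, with grey where both libraries together held under 50 UMIs. The Ftl1 row is blue throughout, the Hmox1 row is blue but for cluster 2 at 1.11, and Slc40a1 is lowest in clusters 4 and 6.

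Summed over the 11 clusters, the members gave 64 pairs of gene and cluster with at least 50 UMIs out of 99. In 35 the *Clec7a*-/- library was lower beyond counting error and in 5 higher, against 10.3% and 10.0% of the 41219 pairs of all genes. Of the 35, 11 were of *Ftl1*, 10 of *Hmox1*, 5 each of *Fth1* and *Slc40a1*, 3 of *Slc11a1* and 1 of *Tfrc*. *Hp*, *Hpgds* and *Blvrb* gave 0. The abundant members pass counting error at smaller ratios, and the shares of all pairs were not matched for UMIs. At least 2-fold lower were 4 pairs (*Slc40a1* in clusters 4 and 6, *Hmox1* in the mature and type 1 DC-like clusters) and at least 2-fold higher 1 (*Hmox1* in cluster 2), against 2.26% and 1.56% of all pairs. In no cluster were more than 1 of the members past 2-fold in a direction.

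Levels of the members across the 22 combinations of cluster and library were compared by Pearson's r of log2(CPM + 10). *Fth1*, *Slc11a1* and *Hmox1* varied together, with 0.96 between *Slc11a1* and *Fth1* and 0.94 between *Fth1* and *Hmox1*. *Hp* was near them, at 0.86 with *Hmox1* and 0.80 with *Fth1*, and *Slc40a1* had 0.76 with *Slc11a1*. *Hpgds* and *Blvrb* were at 0.66, and *Hpgds* and *Hmox1* at -0.03. *Ftl1* and *Fth1*, whose proteins share a shell, were at 0.61, and *Ftl1* and *Hmox1* at 0.72. These points share libraries and depth and are a description. Among 6983 genes, those most like *Slc11a1* were *Itgam* (0.99), *Cebpb* and *Sdcbp*, those most like *Hmox1* were *Plaur* (0.97), *Emilin2* and *Trem1*, and those most like *Fth1* were *Emilin2* (0.98), *Cebpb* and *Itgam*. *Slc40a1* was most like *Gcnt1* (0.90) and *Cd300ld*, *Tfrc* most like *Wdfy2* (0.83), *Klf10* and *Fam102a*, and *Hp* most like *Irak3* (0.95), *Fpr2* and *Schip1*. *Ftl1* was nearest to its copy *Ftl1-ps1* (0.95), *Efhd2* and *Litaf*, *Hpgds* to *Pacc1* (0.90) and *Cd72*, and *Blvrb* to *Scimp* (0.93), *Rassf8* and *Lipa*.

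Erythroid transcripts were few in the kept cells. The 7 erythroid markers summed to 12 WT and 135 *Clec7a*-/- UMIs, of which 121 fell in cluster 5, where 1 cell held 72 UMIs of *Hbb-bs*. *Hmox1* was lower in that cluster of the *Clec7a*-/- library, as given above.

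Of 50 other genes of iron and heme, 40 had at least 50 UMIs over all kept cells. In the *Clec7a*-/- library 15 were lower and 11 higher beyond counting error, with a median log2 ratio of -0.01. Over all 9856 genes tested 1533 were lower and 3326 higher, with a median of 0.14, and of the 9 members 8 were lower and 0 higher, with a median of -0.75. At least 2-fold higher were 0, beside 3.42% of all genes tested, and at least 2-fold lower were 5, beside 1.85%. These were the neutrophil proteins that bind iron or its carriers, *Lcn2* (387 and 94.6 CPM, log2 ratio -2.03, -2.15 to -1.92) and *Ltf* (148 and 26 UMIs, -1.79, -2.47 to -1.20), the metalloreductase *Steap4* (-1.31), *Fbxl5* (-1.11), which senses iron and degrades an iron regulatory protein, and the heme transporter *Slc48a1* (138 and 68.8 CPM). *Lcn2* and *Ltf* are transcripts of granule-rich neutrophils, whose share differed as given above. In *Clec7a*-/- cells of cluster 1 *Steap4* stood at 138 CPM against 109 CPM in WT cells, so its fall over all cells was not seen there.

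Within clusters, 14 of 198 pairs of these genes and a cluster were at least 2-fold lower and 1 higher, beside the 2.26% and 1.56% of all pairs. *Slc48a1*, which brings heme to the cytosol for *Hmox1*, was at least 2-fold lower in 4 clusters, from 209 to 93.3 CPM in monocyte-like cells (log2 ratio -1.16, -1.59 to -0.77), in cluster 4 (-1.03), and in mature (-1.11) and type 1 (-1.23) DC-like cells. *Lcn2* was so in clusters 4, 5, 6 and 10, and in T-cell-like cells it went from 264 to 42.1 CPM along with the neutrophil markers. *Fbxl5* was lower in transitional cells (-1.45) and cluster 4 (-1.63), *Bach1*, the repressor of *Hmox1*, in transitional cells (128 and 61.1 CPM, -1.05), *Keap1* in cluster 6 (-1.07), *Slc39a14* in cluster 4 (-2.58, from 2 *Clec7a*-/- UMIs) and the iron chaperone *Pcbp1* in cluster 2 (-1.64). *Spic*, a transcription factor of iron-recycling macrophages, was the 1 gene higher, in monocyte-like cells (19.9 and 56.8 CPM, log2 interval 0.75 to 2.31).

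By group, the counts beyond counting error over all kept cells were small and stand beside 15.6% of all genes lower and 33.7% higher. Of the genes with enough UMIs, both of release, 2 of 3 of ferritin turnover and cytosolic handling and 2 of 6 of mitochondrial iron were higher, with 1 of those 6 lower. Of 6 uptake genes 4 were lower and 1 higher, and of 5 regulators 3 were lower and 1 higher. Lower were also 2 of 5 genes of heme breakdown and movement, 1 of 3 of iron sensing, the 1 scavenging gene and both neutrophil genes that bind iron or its carriers. *Ncoa4*, which leads ferritin to the lysosome, went from 309 to 424 CPM (log2 ratio 0.46, 0.39 to 0.52), and *Pcbp1*, the highest of its group, from 607 to 713 CPM. Of the 7 heme synthesis genes with enough UMIs, 3 were higher and *Alas1*, the highest and the first enzyme of the path, was lower (239 and 145 CPM, -0.72, -0.82 to -0.62). The highest genes of the other groups were *Trf* (495 and 366 CPM), *Hfe* (22.3 and 28.7), *Ireb2* (38.8 and 39.8), *Slc25a37* (267 and 143), *Lrp1* (74.8 and 57.3) and *Nfe2l2* (653 and 567), the activator of *Hmox1*. Between the iron regulatory proteins, *Ireb2* (0.04, -0.17 to 0.25) and *Aco1* (0.14, -0.12 to 0.40) did not differ beyond counting error.

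**Figure D5:**
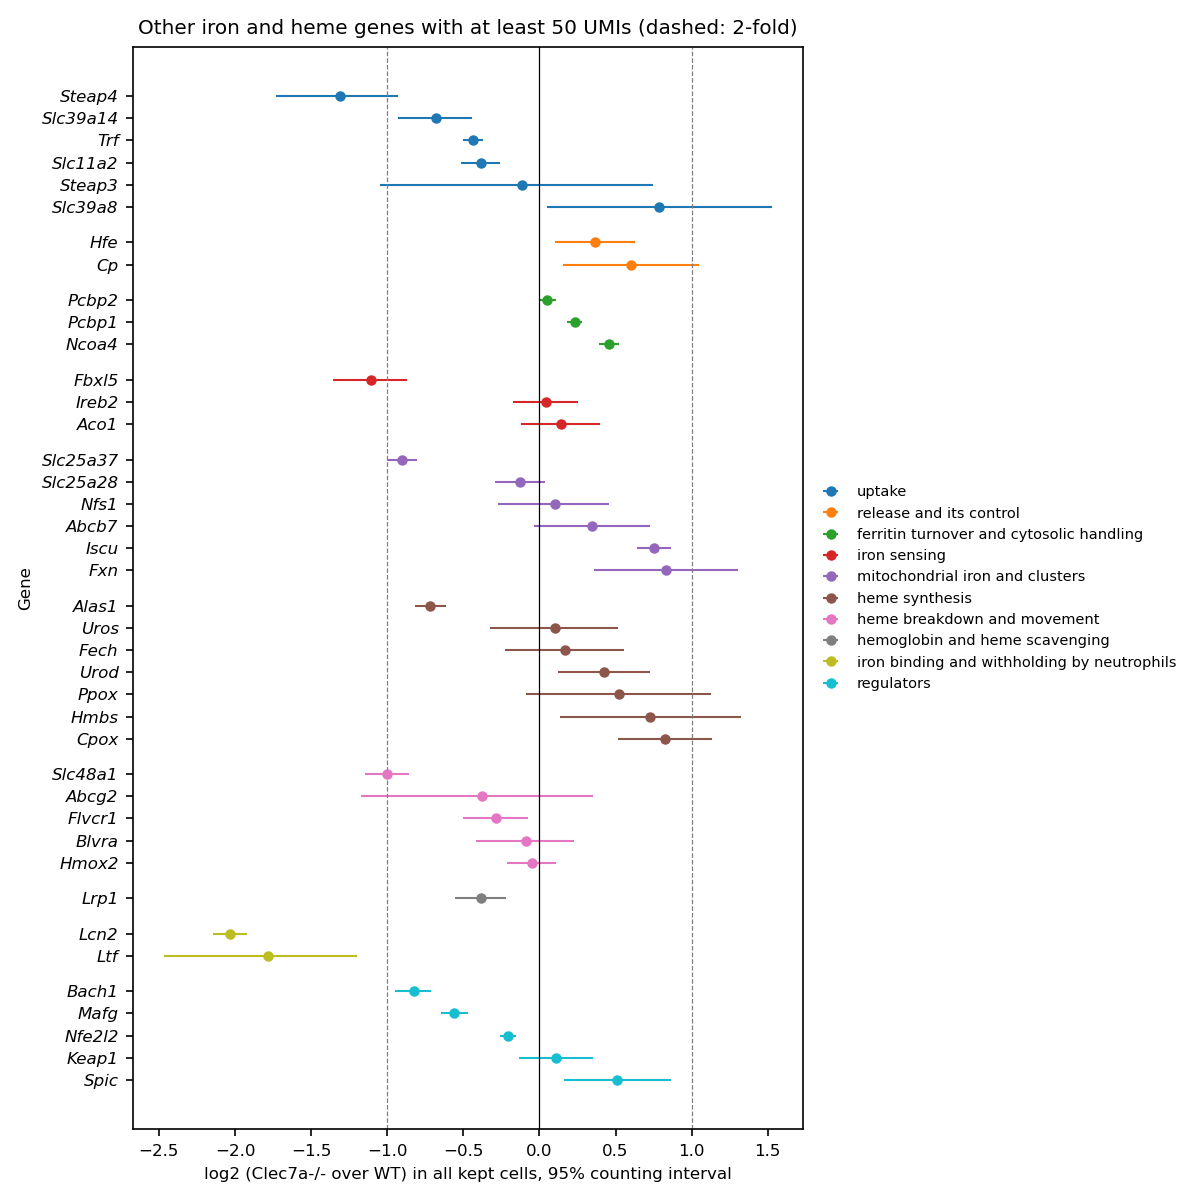
Log2 ratio of the Clec7a-/- over the WT library in all kept cells for the 40 other iron and heme genes with at least 50 UMIs, coloured by group, with 95% counting intervals and dashed lines at 2-fold. Lcn2, Ltf, Steap4, Fbxl5 and Slc48a1 lie at or beyond the lower line, and no gene lies beyond the upper one.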

How the data were processed

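CD11b- and CD11c-stained polyp cells were sequenced with a 3′ microwell kit (SeekOne MM) per the methods, whereas the sample description names 10x Genomics. Raw UMI counts of genes per barcode were deposited. The submitters' processing notes list Cell Ranger 2.1.1 and mm10. How reads were assigned to strands or shared between gene copies is not given in the sources used here. Members and lists were chosen with earlier results of these data known, and groups come from the labels.

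Kept cells had 200 to 4000 genes and no more than 5% mitochondrial UMIs (Python 3.11.15, Scanpy 1.11.5, SciPy 1.17.1). Scrublet called 0 and 1 barcodes (0.032%), so it had not worked and no doublet was removed. Seurat 5.3.0 (R 4.3.3) clustered both libraries together: normalization to 10000, 2000 variable features without members, other iron genes or sex-linked genes, 20 components and resolution 0.8, the smallest giving 15 clusters. Names came from marker lists.

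UMIs were summed per cluster and library. Log2 ratios (*Clec7a*-/- over WT, pseudocount 0.5 UMI) carry exact conditional intervals, levels exact Poisson and shares Clopper-Pearson intervals, all 95% and for counting error only. A gene counted as 2-fold apart with at least 50 UMIs in the cluster. For 0 counts, 3 counts set the upper limit. Named genes were all members, the other iron genes that were 2-fold apart, the highest of each group, and the 3 most alike per member among genes with 200 UMIs, of which some are not reported here; *Ncoa4*, *Aco1*, *Cd163*, *Hilpda* and *Cxcl2* were added after their values were seen. The ratio was tested on simulated data. Alternatives, TMM scaling from edgeR 4.0.16 among them, are in the closing section.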

Additional observations from a re-analysis of the deposited data

Results flagged for a closer look

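*Hmox1* differed in direction between clusters. It was higher in the *Clec7a*-/- library in cluster 2, by a log2 ratio of 1.11, and lower in the other 10 clusters. *Slc11a1* was higher in cluster 2 (0.69) and lower beyond counting error in 3 other clusters. *Fth1* was higher in cluster 2 (0.27), in monocyte-like cells (0.15) and in macrophage-like cluster 5 (0.06), and lower in 5 other clusters. None of these differences between clusters was tested, since each cluster has 1 value per library. Outside the cells used for the comparisons, the barcodes removed by the filter held 949 WT and 1860 *Clec7a*-/- UMIs of the 7 erythroid markers, above the limit of 3 counts, and 1 and 4 barcodes in all had at least 50.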

How the results depend on the processing

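No paired analysis was possible because each genotype has 1 library. Over 12 alternatives, 64 member ratios gave 738 values, of which 619 moved by less than their counting interval, 101 moved further with the same sign, 11 moved further to the other sign from a ratio whose interval spanned 0, and 7 turned from a ratio that did not. *Ftl1* stayed lower in each of the 11 clusters under all that gave a value (-0.34 to -0.92), and *Hmox1* lower in 10 and higher in cluster 2 (0.86 to 1.62). In every alternative 2 members had their highest level in cluster 5 or 6 or their class.

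The 11 were *Fth1* in T-cell-like cells (3, -0.17 to -0.09) and in transitional cells (7, -0.07 to -0.01) and *Slc11a1* in type 2 DC-like cells (0.23). The 7 were *Fth1* in cluster 5 (-0.020 with 10% mitochondrial UMIs allowed, -0.046 with no limit), in type 2 DC-like cells (0.027 with 10%, 0.021 with 30 components, 0.026 as a mean over cells) and in cluster 4 (0.021 without the top 5% of doublet scores), and *Tfrc* in cluster 2 (0.018 after reciprocal PCA). TMM scaling moved every ratio of cluster 2 up by 0.51, so that *Slc40a1* there stood at 0.11, and those of cluster 1 down by 0.24.

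The counts that follow are of pairs of a gene and a cluster, summed over the clusters. Pairs of members at least 2-fold higher (1) became 2 with higher limits on genes per cell, a higher resolution, 30 components or all features. They were also 2 with TMM, a minimum of 20 UMIs or the top 5% of doublet scores removed, and 3 with no minimum. Pairs of members lower (4) became 7 with classes from markers, a minimum of 20 UMIs or the doublet scores removed, and 16 with no minimum. Pairs of the other iron genes higher (1) became 2 with 10% mitochondrial UMIs, a higher resolution, 30 components, reciprocal PCA, classes from markers or TMM. They became 0 with higher limits on genes or no mitochondrial limit, and 3 with all features, a pseudocount of 5 UMIs or the doublet scores removed. With a minimum of 20 UMIs they were 11, and with none 54. Those lower (14) became 51 with no minimum and 9 with the doublet scores removed. Pairs of all genes higher (642) became 2278 with a minimum of 20 UMIs and 22511 with none. Those lower (933) became 2792, 16578 and, with a pseudocount of 5, 501. With fewer UMIs required more low genes enter the count; the cause of the other changes was not tested.

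The alternative without Scrublet calls was not run, since it removes no kept cell, and in 2 alternatives cluster 6 merged with another and gave no value. The doublet-score and no-limit alternatives were chosen after seeing the data. Counting error leaves out differences between mice and preparations, and the ratios of members under 50 UMIs in a cluster (*Hp*, *Hpgds*, *Blvrb* in most) have wide intervals.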
